A study of Mus musculus with 9 samples.

Results

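The MHC class I antigen processing genes are here a set of 10, B2m, H2-K1, H2-D1, Tap1, Tap2, Tapbp, Psmb8, Psmb9, Psmb10 and Nlrc5. These genes encode chains of class I molecules, proteins that supply and load their peptides, and a transactivator of class I genes. They were found by their symbols in a count table of mouse ear epidermis that lists 52550 genes, and all 10 were among the 18009 genes tested between model and control mice. The 9 libraries of total RNA came from C57BL/6 wild-type males aged 8 weeks, in 3 groups of 3. In the control group (VAS+H2O), Vaseline was applied for 5 days to mice given ddH2O by gavage for 10 days. In the model group (IMQ+H2O), imiquimod cream, an agonist of Toll-like receptor 7 that produces a psoriasis-like dermatitis, took the place of Vaseline. In the XYF group (IMQ+XYF), mice with imiquimod received 200 μl of Xiao-Yin-Fang decoction (23.3 mg/g), a mixture of medicinal herbs, by gavage in place of ddH2O. All 3 groups thus shared the gavage procedure. The labels do not say whether libraries of a group came from separate mice, so p-values measure the spread between libraries, part of which may be technical. The study's methods name a pair of mice as the source of the ear sheets without saying whether a pair stands behind each library.

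MHC class I molecules show peptides from inside the cell to CD8+ T cells and natural killer cells, and are found on nearly all nucleated cells, keratinocytes included. Proteins are cut by the proteasome, whose inducible form (the immunoproteasome) carries the subunits encoded by Psmb8, Psmb9 and Psmb10. The peptides are carried into the endoplasmic reticulum by the transporter of Tap1 and Tap2, which tapasin (Tapbp) bridges to an empty class I molecule made of a heavy chain (H2-K1 or H2-D1) and β2-microglobulin (B2m). Nlrc5 encodes the transactivator of class I genes, and interferons are known inducers of the whole set.

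Of the 10 genes, 7 lie on chromosome 17, 2 on chromosome 8 and 1 on chromosome 2 (GRCm38, GENCODE M21). On chromosome 17, Psmb9 (ENSMUSG00000096727, 34181987 to 34187764, minus strand), Tap1 (ENSMUSG00000037321, 34187553 to 34197225, plus strand), Psmb8 (ENSMUSG00000024338, 34197721 to 34201454, plus strand) and Tap2 (ENSMUSG00000024339, 34203527 to 34216321, plus strand) follow each other. Tapbp (ENSMUSG00000024308, 33915899 to 33929292) and H2-K1 (ENSMUSG00000061232, 33996017 to 34000347) lie before them, and H2-D1 (ENSMUSG00000073411, 35262730 to 35267499) lies after them. B2m (ENSMUSG00000060802) is at 122147686 to 122153083 of chromosome 2, and Psmb10 (ENSMUSG00000031897, 105935735 to 105938444) and Nlrc5 (ENSMUSG00000074151, 94434356 to 94527272) are on chromosome 8. All are protein-coding. Psmb9 and Tap1 share 212 exonic bases on opposite strands, and Tap2, Tapbp, Psmb8 and Nlrc5 share exonic bases with neighbouring transcripts of the opposite strand. Reads there could not be assigned to 1 gene if the counting ignored strand, which the sources used here do not state. Tapbp also shares 149 exonic bases with Zbtb22 on the same strand, where reads cannot be assigned by strand at all.

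RefSeq promoter windows on GRCm38.p6, from 250 bases before to 50 after a start site, were at hand for 8 of the 10 genes, all but Tap2 and Nlrc5. They were searched on both strands for elements known to bear interferon and NF-kB signals, and for the CCAAT box. The interferon-stimulated response element (GAAA, any 2 bases, and GAAA again) was found in 1 of the 8 genes, B2m, and in 3.44% of all 32851 windows. The gamma-activated site (TTCNNNGAA) was found in 1, Psmb8 (8.30% of all windows), the NF-kB consensus in 3, B2m, H2-K1 and H2-D1 (8.46%), and the CCAAT box in 6 (37.4%). Psmb9 and Tap1, which start at 34187330 and 34187556 on opposite strands, share a single CCAAT box at chr17:34187334-34187338. The stretches of 30 bases that hold the first 3 kinds, the interferon and NF-kB elements, are shown 5′ to 3′ on the strand of the gene. The letters matched by these kinds are in capitals. In B2m (chr2:122147544-122147573, plus strand) the response element comes first and the NF-kB match second. In H2-K1 (chr17:34000438-34000467, minus strand) and H2-D1 (chr17:35262914-35262943, plus strand), 2 overlapping NF-kB matches form a single element that reads on either strand, and 29 of the 30 bases are identical. The Psmb8 stretch (chr17:34198088-34198117, plus strand) holds the gamma-activated site and lies before the RefSeq start, within an exon of a longer GENCODE transcript. That of H2-D1 also lies before its RefSeq start (35263094) but within the GENCODE bounds of its gene, which begin at 35262730. All of these are matches of letters only.
B2m: acatGAAACTGAAAatgGGAAAGTCCCttt
H2-K1: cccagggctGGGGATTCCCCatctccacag
H2-D1: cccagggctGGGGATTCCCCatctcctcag
Psmb8: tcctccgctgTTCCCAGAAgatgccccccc

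Between 30298275 and 64771160 reads per library fell on genes. Levels are given as CPM, the counts of a gene per 1000000 counts of its library after TMM scaling (factors 0.956 to 1.06), and a floor of 3 counts stood at 0.0463 to 0.0990 CPM before this scaling, which covers counting error only. Markers of keratinocytes summed to 42802 to 67158 CPM per library and those of Langerhans cells to 495 to 672, both cell types of the labelled epidermis. VAS+H2O replicate 2 stood apart, with 623 CPM over 6 dermal fibroblast markers against 66.3 and 99.7 in the other VAS+H2O libraries, and 350 CPM over 5 cartilage markers against 155 and 157. In the same library all 10 class I processing genes had their lowest level of the 9 libraries. Calls against VAS+H2O that were lost without it, and member values that moved by over 1.5 times, are given below without it as well.

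The first question was how the class I genes stood in model mice against control mice. In edgeR's quasi-likelihood test, 4 of the 10 members were higher in IMQ+H2O at an adjusted p of at most 0.05 and 0 were lower, where 12.7% of all tested genes were higher by this rule and 9.41% lower. These 4 were B2m, H2-D1, Psmb8 and Psmb10, the light chain, a heavy chain and 2 immunoproteasome subunits. Psmb8 and Psmb10 also exceeded a log2 fold change of 1, as 3.64% of all tested genes did. All 10 log2 fold changes were above 0 (47.6% of all tested genes), with a median of 0.55 against -0.03 over all tested genes. In 7 of the 10 the groups did not overlap, with each IMQ+H2O library above each VAS+H2O library, as in 23.4% of all tested genes. DESeq2 called 5, with Tapbp as the fifth (14.5% of its genes were higher). Without VAS+H2O replicate 2, edgeR called 0 of the 10 (4.9% of all genes were then higher), while all 10 fold changes stayed above 0 with a median of 0.35. Without any 1 of the other 5 libraries it called 1 or 2. These are bulk libraries, so more cells with a transcript and more transcript per cell cannot be told apart.

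**Figure D1:**
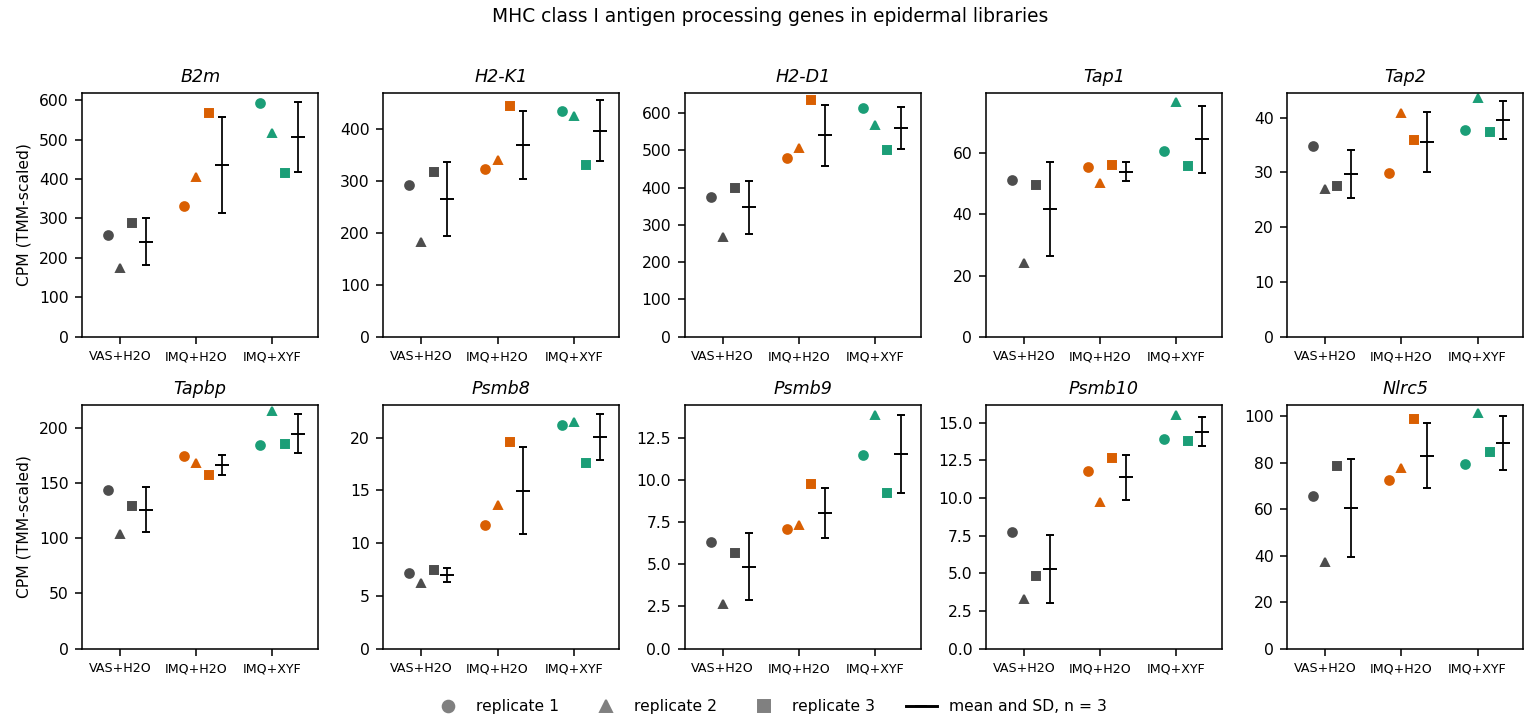
TMM-scaled CPM (vertical axes, from 0) of the 10 members in each of the 9 libraries, by group, with the mean and SD of 3 libraries in black. VAS+H2O replicate 2 is the lowest library in all 10 panels, and each IMQ+XYF library lies above each VAS+H2O library in all 10.

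B2m, the light chain shared by all class I molecules, had 258, 175 and 289 CPM in VAS+H2O, 332, 406 and 568 in IMQ+H2O and 592, 516 and 415 in IMQ+XYF. Each library with imiquimod exceeded each control library, while the IMQ+H2O and IMQ+XYF libraries overlapped. B2m rose in IMQ+H2O by a log2 fold change of 0.84 ± 0.25 (SE), or 1.79-fold (edgeR quasi-likelihood test, Benjamini-Hochberg adjusted p = 0.04999, at the very threshold). It did not pass under RLE size factors (adjusted p = 0.0502) or without VAS+H2O replicate 2 (log2 fold change 0.66, adjusted p = 0.123), and it kept the call with 1 library left out only without IMQ+H2O replicate 1. Against VAS+H2O, IMQ+XYF was 2.11-fold higher (log2 fold change 1.07 ± 0.21 SE, adjusted p = 0.0107), and without that library the value was 0.89 (adjusted p = 0.0176).

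The heavy chains H2-K1 and H2-D1 are the classical class I molecules of C57BL/6 mice. H2-D1 had 376, 267 and 399 CPM in VAS+H2O, 479, 507 and 634 in IMQ+H2O and 614, 567 and 501 in IMQ+XYF, with both imiquimod groups wholly above the controls. It rose 1.54-fold in IMQ+H2O (log2 fold change 0.63 ± 0.18 SE, adjusted p = 0.045, edgeR) and 1.61-fold in IMQ+XYF against VAS+H2O (0.69 ± 0.16 SE, adjusted p = 0.0202). The first call was lost whichever library was left out (log2 fold changes of 0.47 to 0.77), and the second was lost without IMQ+XYF replicate 1 (adjusted p = 0.0638) or 2 (0.0553). H2-K1 had 293, 183 and 316 CPM in VAS+H2O, 322, 340 and 444 in IMQ+H2O and 434, 425 and 330 in IMQ+XYF. Its groups did not overlap either, though VAS+H2O replicate 3 came close to IMQ+H2O replicate 1, and its log2 fold changes of 0.47 ± 0.22 (SE, adjusted p = 0.164) and 0.59 ± 0.21 (SE, adjusted p = 0.0845) against VAS+H2O did not pass the test in edgeR. Without VAS+H2O replicate 2 they were 0.27 and 0.38. DESeq2, with all 6 libraries, called the second (adjusted p = 0.0201).

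Class I heavy chain genes are close copies of each other, and how the counting treated reads that fit several of them is not given in the sources used here, so the split between H2-K1, H2-D1 and the Q and T region genes is uncertain. H2-K1 and H2-D1 together took 73.9% to 80.1% of the CPM of 21 heavy chain genes. With the counts of all 21 summed to 1 feature, the log2 fold change was 0.49 in IMQ+H2O (adjusted p = 0.0988) and 0.61 in IMQ+XYF (adjusted p = 0.0443) against VAS+H2O.

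Among the transporter and loading genes, Tapbp had 144, 104 and 130 CPM in VAS+H2O, 174, 169 and 157 in IMQ+H2O and 184, 215 and 185 in IMQ+XYF. The 3 groups followed each other with no overlap at all. Its log2 fold change was 0.39 ± 0.12 (SE) in IMQ+H2O (adjusted p = 0.0614 in edgeR, 0.0275 in DESeq2) and 0.63 ± 0.13 in IMQ+XYF against VAS+H2O (adjusted p = 0.0136). Tap1, a subunit of the peptide transporter, had 51.4, 23.99 and 49.6 CPM in VAS+H2O, 55.6, 50.3 and 56.0 in IMQ+H2O and 60.8, 76.9 and 56.0 in IMQ+XYF. The IMQ+H2O libraries stood beside VAS+H2O replicates 1 and 3, and the log2 fold change of 0.36 ± 0.26 (SE, adjusted p = 0.357) came to 0.09 without VAS+H2O replicate 2, as that of IMQ+XYF against VAS+H2O, 0.63 ± 0.29 (SE, adjusted p = 0.146), came to 0.35. Tap2, the other subunit, had 34.8, 26.9 and 27.4 CPM in VAS+H2O, 29.98, 40.9 and 35.8 in IMQ+H2O and 37.8, 43.5 and 37.4 in IMQ+XYF. It passed the test against VAS+H2O only in IMQ+XYF (log2 fold change 0.41 ± 0.13 SE, adjusted p = 0.0494), and no longer did so without VAS+H2O replicate 2 (0.35, adjusted p = 0.13) or without any other library but VAS+H2O replicate 1.

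The immunoproteasome subunits had the lowest levels of the set, and Psmb8 and Psmb10 its largest fold changes against VAS+H2O. Psmb8 encodes the β5i subunit and had 7.21, 6.19 and 7.42 CPM in VAS+H2O, 11.7, 13.6 and 19.6 in IMQ+H2O and 21.2, 21.5 and 17.5 in IMQ+XYF. No IMQ+H2O library came near the controls, and Psmb8 rose 2.14-fold (log2 fold change 1.10 ± 0.21 SE, adjusted p = 0.017, edgeR). This value hardly moved without VAS+H2O replicate 2, at 1.03, though its adjusted p was then 0.06, and the call was also lost without VAS+H2O replicate 1 (0.0522). In IMQ+XYF it was 2.89-fold above VAS+H2O (1.53 ± 0.13 SE, adjusted p = 0.000951), the smallest adjusted p among the members in any comparison.

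Psmb10 encodes the β2i subunit and had 7.76, 3.28 and 4.84 CPM in VAS+H2O, 11.8, 9.72 and 12.6 in IMQ+H2O and 13.9, 15.5 and 13.8 in IMQ+XYF. As for Tapbp, the 3 groups did not overlap. It rose 2.13-fold in IMQ+H2O (log2 fold change 1.09 ± 0.31 SE, adjusted p = 0.0458, edgeR) and 2.71-fold in IMQ+XYF against VAS+H2O (1.44 ± 0.30 SE, adjusted p = 0.0134). Without VAS+H2O replicate 2 the values were 0.84 (adjusted p = 0.0914) and 1.19 (adjusted p = 0.0196). With 1 library left out, the first call held only without VAS+H2O replicate 1 and the second held throughout.

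Psmb9 encodes the β1i subunit and had 6.32, 2.64 and 5.65 CPM in VAS+H2O, 7.11, 7.30 and 9.76 in IMQ+H2O and 11.5, 13.9 and 9.26 in IMQ+XYF. VAS+H2O replicate 2 stood at 44.1% of the mean of the other 2 controls, the widest gap of any member. The log2 fold change of 0.71 ± 0.33 (SE) in IMQ+H2O did not pass the test (adjusted p = 0.159, edgeR) and was 0.42 without that library, while Psmb9 was 2.36-fold higher in IMQ+XYF than in VAS+H2O (1.24 ± 0.33 SE, adjusted p = 0.0332). That call was lost without any 1 IMQ+XYF library (adjusted p = 0.0802, 0.0943 and 0.0576) or VAS+H2O replicate 3 (0.0591). Nlrc5, the transactivator, had 65.8, 37.5 and 78.5 CPM in VAS+H2O, 72.7, 77.6 and 98.9 in IMQ+H2O and 79.5, 102 and 84.7 in IMQ+XYF. It passed no test, with log2 fold changes of 0.44 ± 0.26 (SE, adjusted p = 0.259) and 0.55 ± 0.26 (SE, adjusted p = 0.157) against VAS+H2O, which came to 0.20 and 0.30 without VAS+H2O replicate 2.

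Per length, as RPKM over the union of GENCODE exons, the levels in VAS+H2O ran from B2m (280 ± 68.6 SD, n = 3) through H2-D1 (135 ± 27.4), H2-K1 (89.9 ± 24.2) and Tapbp (34.7 ± 5.63) to Tap2 (7.86 ± 1.17), Tap1 (7.61 ± 2.80) and Nlrc5 (7.14 ± 2.47), and then to Psmb10 (3.10 ± 1.33), Psmb8 (2.05 ± 0.196) and Psmb9 (1.33 ± 0.536). Tap2, Tap1 and Nlrc5 differed from each other by less than the SD of their levels, and Psmb10 from Psmb8 by less than the SD of Psmb10. In IMQ+XYF the same genes stood at the top (B2m, 590 ± 103 RPKM) and at the bottom (Psmb9, 3.15 ± 0.630 RPKM). By CPM and by this RPKM, the immunoproteasome subunits were thus the lowest of the set in every group. The union lengths, 3381 bases for Psmb8 and 3660 for Psmb9, take in all annotated transcripts of a gene, so the RPKM order depends on them.

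The second question was whether XYF moved these genes in mice with imiquimod. In edgeR 0 of the 10 members passed the test between IMQ+XYF and IMQ+H2O, as did 0 in DESeq2 (0.892% of its genes were higher), and 0.0281% of all tested genes did so in edgeR, 5 of 17793. All 10 log2 fold changes were above 0 with all 6 libraries, between 0.06 for H2-D1 and 0.52 for Psmb9, with a median of 0.23 against 0.00058 over all tested genes, of which 50.1% were above 0. At an unadjusted p under 0.05 there were 3 members, Tapbp, Psmb9 and Psmb10, all higher (3.84% of all tested genes were higher by this rule). Without overlap and higher in IMQ+XYF were 2, Tapbp and Psmb10, against 5.99% of all tested genes.

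The values of those 3 members were a log2 fold change of 0.23 ± 0.09 (SE) for Tapbp (adjusted p = 0.817, edgeR), 0.52 ± 0.20 for Psmb9 (adjusted p = 0.818) and 0.35 ± 0.13 for Psmb10 (adjusted p = 0.826). Over the 10 members the 95% intervals, not adjusted for the number of genes, reached from -0.29 at the lowest (B2m) to 0.99 at the highest (Psmb9). The interval for H2-D1, the member nearest to no difference, was -0.25 to 0.37. A lower level under XYF by more than 0.29 on the log2 scale was therefore outside the interval of each member, while a higher level by 0.37 was inside that of each member.

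**Figure D2:**
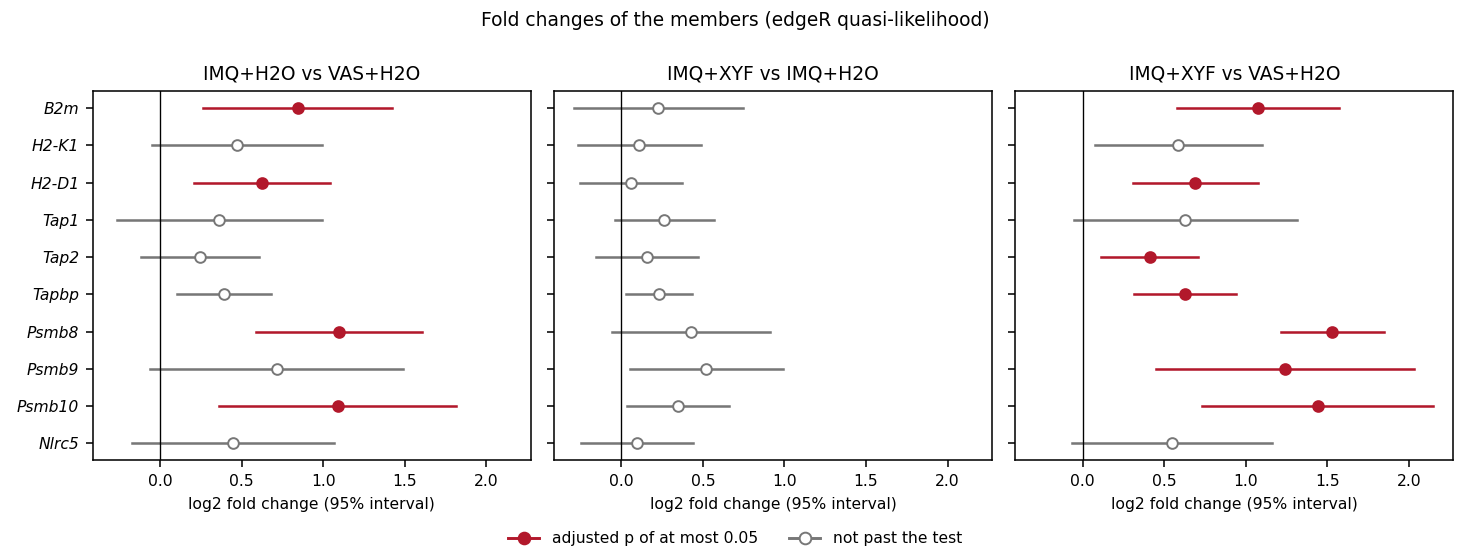
log2 fold changes of the 10 members (points) with 95% intervals (lines) from edgeR in the 3 comparisons, filled red where the adjusted p was at most 0.05. Filled are 4 members in IMQ+H2O against VAS+H2O, 0 in IMQ+XYF against IMQ+H2O and 7 in IMQ+XYF against VAS+H2O, and all 30 points lie to the right of 0.

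The third comparison set IMQ+XYF against VAS+H2O, and shares its libraries with the other two, so that its values are no independent support for them. In it 7 of the 10 members were higher past the test in edgeR (16.7% of all tested genes), and H2-K1, Tap1 and Nlrc5 did not pass. B2m, Psmb8, Psmb9 and Psmb10 exceeded a log2 fold change of 1, as 4.58% of all tested genes did while passing the test. In all 10 members each IMQ+XYF library lay above each VAS+H2O library, as in 25.1% of all tested genes. All 10 log2 fold changes were above 0 (46.9% of all tested genes), with a median of 0.66 against -0.04 over all tested genes. DESeq2 called 8, with H2-K1 as the eighth (17.7% of its genes were higher), and without VAS+H2O replicate 2 edgeR called 6 (12.6% of all genes were then higher).

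In a proteasome, Psmb8, Psmb9 and Psmb10 take the places of the constitutive catalytic subunits encoded by Psmb5, Psmb6 and Psmb7. The ratio of each pair within a library needs no scaling between libraries. The log2 ratio of Psmb8 to Psmb5 was -2.95, -3.05 and -2.74 in VAS+H2O, -2.84, -2.41 and -2.07 in IMQ+H2O and -1.98, -1.81 and -2.24 in IMQ+XYF. One IMQ+H2O library fell among the controls. That of Psmb9 to Psmb6 was -4.22, -5.34 and -4.36 in VAS+H2O, -4.45, -4.18 and -4.14 in IMQ+H2O and -3.76, -3.49 and -4.16 in IMQ+XYF, and that of Psmb10 to Psmb7 was -3.62, -4.74 and -4.21, then -3.35, -3.57 and -3.31, then -3.23, -2.88 and -3.27. All values are below 0, so counts of the constitutive genes exceeded those of the inducible ones in each library.

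**Figure D3:**
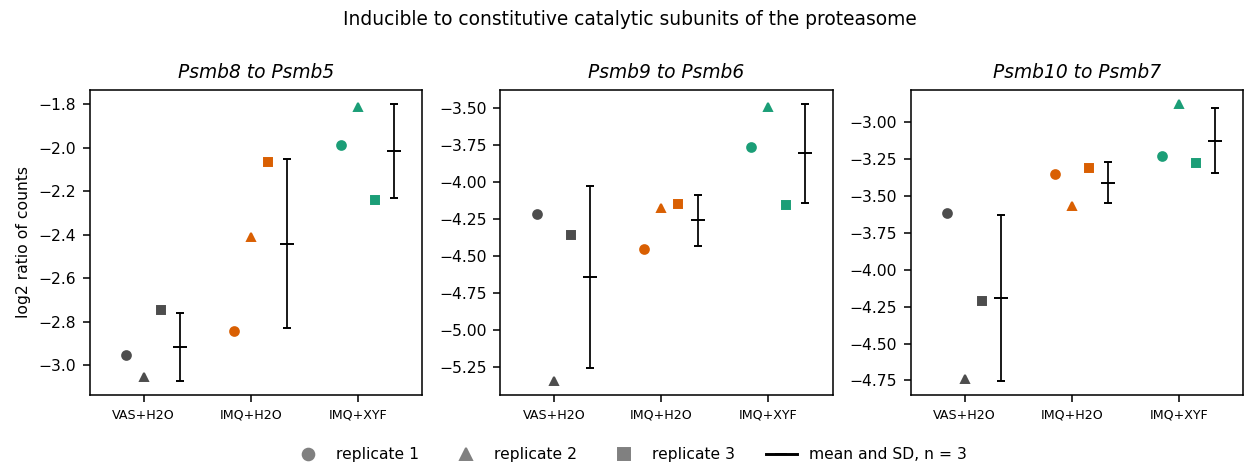
log2 ratio of counts of each inducible catalytic subunit to its constitutive counterpart in each library (points), with the mean and SD of 3 libraries per group in black; the vertical axes do not start at 0 and differ between panels. The IMQ+XYF libraries lie above the VAS+H2O libraries in all 3 panels, and IMQ+H2O lies between without overlap in the panel of Psmb10 to Psmb7 alone.

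From VAS+H2O to IMQ+H2O the mean log2 ratio was higher by 0.48 for Psmb8 to Psmb5 (exact two-sided permutation test, p = 0.2), by 0.38 for Psmb9 to Psmb6 (p = 0.5, exact test) and by 0.78 for Psmb10 to Psmb7 (p = 0.1, exact test). From IMQ+H2O to IMQ+XYF it was higher by 0.43, 0.45 and 0.28 (exact permutation p = 0.2, 0.2 and 0.1), and from VAS+H2O to IMQ+XYF by 0.90, 0.84 and 1.06 (exact permutation p = 0.1 each). Over these 9 relations the Benjamini-Hochberg adjusted values of the exact permutation tests were 0.18 for the 5 with a p of 0.1, 0.225 for the 3 with a p of 0.2 and 0.5. With 3 libraries against 3 the test cannot give a p under 0.1, so none of these ratios could pass the threshold. Without VAS+H2O replicate 2, the first differences of Psmb9 to Psmb6 and of Psmb10 to Psmb7 were 0.03 and 0.50.

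The constitutive core itself moved with imiquimod. Of its 14 genes, 13 rose past the test in IMQ+H2O against VAS+H2O, where 12.7% of all tested genes did. The remaining 1, Psmb1, did not pass (log2 fold change 0.13 ± 0.09 SE, adjusted p = 0.331, edgeR). Psma5 rose by 0.70 ± 0.08 (SE, adjusted p = 0.00663), Psmb5 by 0.59 ± 0.09 (adjusted p = 0.0105), Psmb3 by 0.55 ± 0.09 (adjusted p = 0.0114) and Psma6 by 0.44 ± 0.07 (adjusted p = 0.0122). The other 2 partners of inducible subunits, Psmb6 and Psmb7, rose by 0.42 ± 0.11 (adjusted p = 0.0376) and 0.39 ± 0.07 (adjusted p = 0.0151). The median of the core was 0.43 and that of the members 0.55, and without VAS+H2O replicate 2 the order was reversed, at 0.40 and 0.35. Without that library 4 of the 14 passed, Psma5, Psma6, Psmb3 and Psmb5, beside 4.9% of all genes that were then higher. Psmb6 and Psmb7 did not pass (adjusted p = 0.114 and 0.0568). Between IMQ+XYF and IMQ+H2O 0 of 14 passed in edgeR or DESeq2, also 0 at an unadjusted p under 0.05, and the median was 0.02, where that of the members was 0.23.

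Genes of peptide supply, loading and quality control around the members were higher in the model too. In IMQ+H2O 12 of 15 rose past the test, where 12.7% of all tested genes did. Without VAS+H2O replicate 2 it was 5 of 15, beside 4.9% of all genes. Calr, which encodes the chaperone calreticulin of the loading complex, had 395, 310 and 406 CPM in VAS+H2O, 845, 763 and 1000 in IMQ+H2O and 875, 810 and 863 in IMQ+XYF, and its log2 fold change in IMQ+H2O was 1.22 ± 0.14 (SE, adjusted p = 0.00663, edgeR). Hspa5 encodes the chaperone BiP of the endoplasmic reticulum and rose by 1.18 ± 0.14 (adjusted p = 0.00697). Psme2, a subunit of the interferon-inducible proteasome activator, rose by 0.66 ± 0.10 (adjusted p = 0.00942), and Tpp2, a peptidase of the cytosol, by 0.46 ± 0.07 (adjusted p = 0.0117). Calr, Hspa5, Psme2 and Tpp2 all passed without that library too. Between IMQ+XYF and IMQ+H2O 0 of the 15 passed in edgeR or DESeq2. At an unadjusted p under 0.05 there were 2, both higher (3.84% of all tested genes were higher by this rule). These were Erap1 and Psme2, named after their values were seen. Erap1, the aminopeptidase that trims peptides for class I, had 49.6, 49.2 and 59.4 CPM in IMQ+H2O and 63.8, 68.9 and 66.0 in IMQ+XYF (log2 fold change 0.33 ± 0.09 SE, adjusted p = 0.607, edgeR).

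Of the 19 other heavy chain genes, 12 had enough counts to be tested in IMQ+H2O against VAS+H2O and 0 passed in edgeR. At an unadjusted p under 0.05 there were 4, where 6823 of all 18009 tested genes were. DESeq2 called 2, 1 in each direction (of its 18629 genes 2704 were higher and 2149 lower). The median log2 fold change of the 12 was 0.24. H2-T22, with the highest mean CPM of them, had 64.8, 43.1 and 65.7 CPM in VAS+H2O, 64.5, 74.9 and 75.6 in IMQ+H2O and 87.7, 96.2 and 76.4 in IMQ+XYF, and the first 2 of these groups overlapped. H2-T23, the ligand (Qa-1) of the NKG2 receptors of natural killer cells, had 69.1, 44.9 and 54.5, then 58.9, 63.2 and 57.3, then 72.7, 73.0 and 59.3 CPM. It overlapped between all groups, with a log2 fold change of 0.08 ± 0.15 (SE, adjusted p = 0.743, edgeR) in IMQ+H2O.

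**Figure D4:**
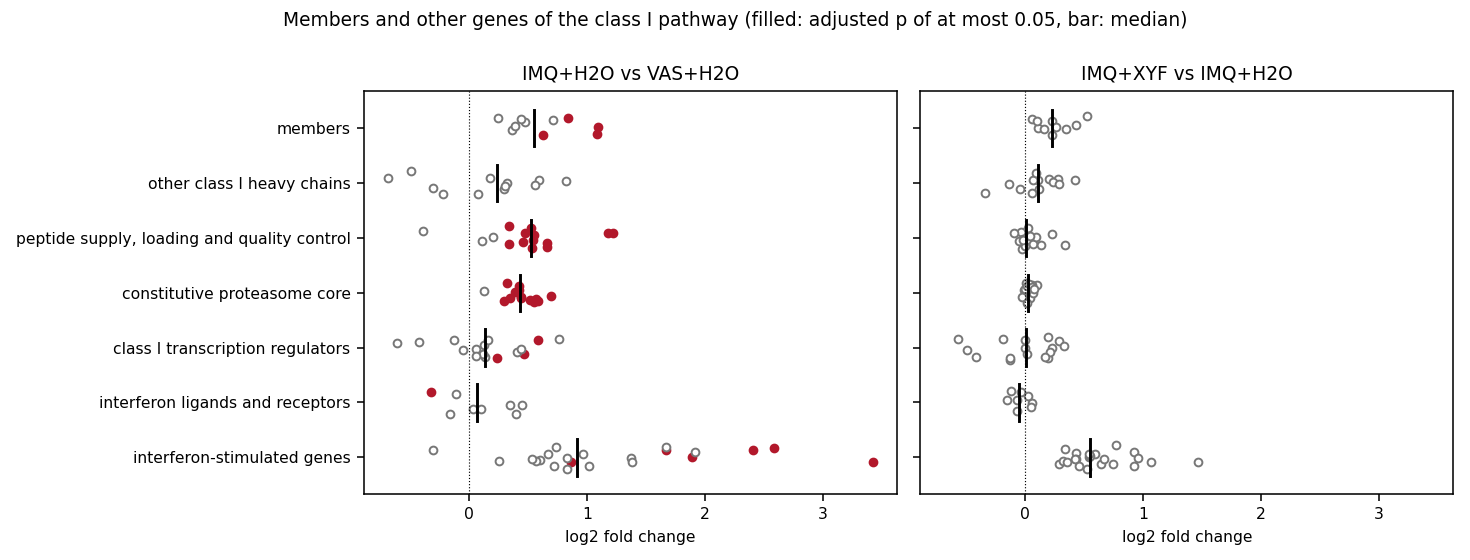
log2 fold change (horizontal axis) of each tested gene of 7 lists (points, filled where the adjusted p in edgeR was at most 0.05) with the median of the list as a bar, for IMQ+H2O against VAS+H2O on the left and IMQ+XYF against IMQ+H2O on the right; the vertical scatter within a row has no meaning. The medians of all 7 lists lie to the right of 0 on the left, that of the interferon-stimulated genes furthest (0.92). On the right the medians above 0.2 are those of the members and of the interferon-stimulated genes.

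Among 16 transcription regulators that act on class I promoters or on interferon signals, 3 were higher past the test in IMQ+H2O against VAS+H2O and 0 lower in edgeR, beside the 12.7% and 9.41% of all tested genes. Nfkb1 and Rela, which encode subunits of NF-kB, rose by log2 fold changes of 0.59 ± 0.09 (SE, adjusted p = 0.00947) and 0.24 ± 0.07 (adjusted p = 0.0468), and Nfyb, a subunit of the factor that binds CCAAT boxes, by 0.47 ± 0.10 (adjusted p = 0.0212). Without VAS+H2O replicate 2, Nfkb1 still passed (adjusted p = 0.0347), and Nfyb (0.0734) and Rela (0.114) did not. Of 18 interferon ligands, receptors and their kinases, 8 could be tested and 1 passed, Tyk2, a kinase of the type I interferon receptor, which fell by 0.32 (SE 0.08, adjusted p = 0.0283, edgeR), a call lost without VAS+H2O replicate 2 (adjusted p = 0.0936). Ifng, which encodes interferon gamma, had 0 counts in all 9 libraries, which allows up to 0.0463 to 0.0990 CPM per library. Between IMQ+XYF and IMQ+H2O 0 regulators and 0 of the 8 interferon genes passed in edgeR or DESeq2. At an unadjusted p under 0.05 there were 2 and 0, where 966 of all 17793 tested genes were.

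The interferon-stimulated genes, 22 in all, had a median log2 fold change of 0.92 in IMQ+H2O against VAS+H2O. In edgeR 6 rose past the test, where 12.7% of all tested genes did. They were led by Mx1, Cxcl9, Rsad2 and Oas1a with values of 2.41 ± 0.37 (SE, adjusted p = 0.0105), 3.42 ± 0.72 (adjusted p = 0.0206), 1.89 ± 0.45 (adjusted p = 0.0291) and 2.59 ± 0.65 (adjusted p = 0.0345). Cxcl9 had 4, 0 and 4 counts in the control libraries, near the floor of 3, so the size of its fold change is uncertain. All 4 also passed without VAS+H2O replicate 2. Between IMQ+XYF and IMQ+H2O all 22 had log2 fold changes above 0, with a median of 0.55, and 0 passed in edgeR. At an unadjusted p under 0.05 there were 9 (3.84% of all tested genes were higher by this rule), and DESeq2 called 2 (0.892% of its genes were higher). The summed level of the 22 was 240, 78.6 and 210 CPM in VAS+H2O, 366, 336 and 299 in IMQ+H2O and 461, 563 and 400 in IMQ+XYF, without overlap between the groups, and it was lowest in the same control library as the members.

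**Figure D5:**
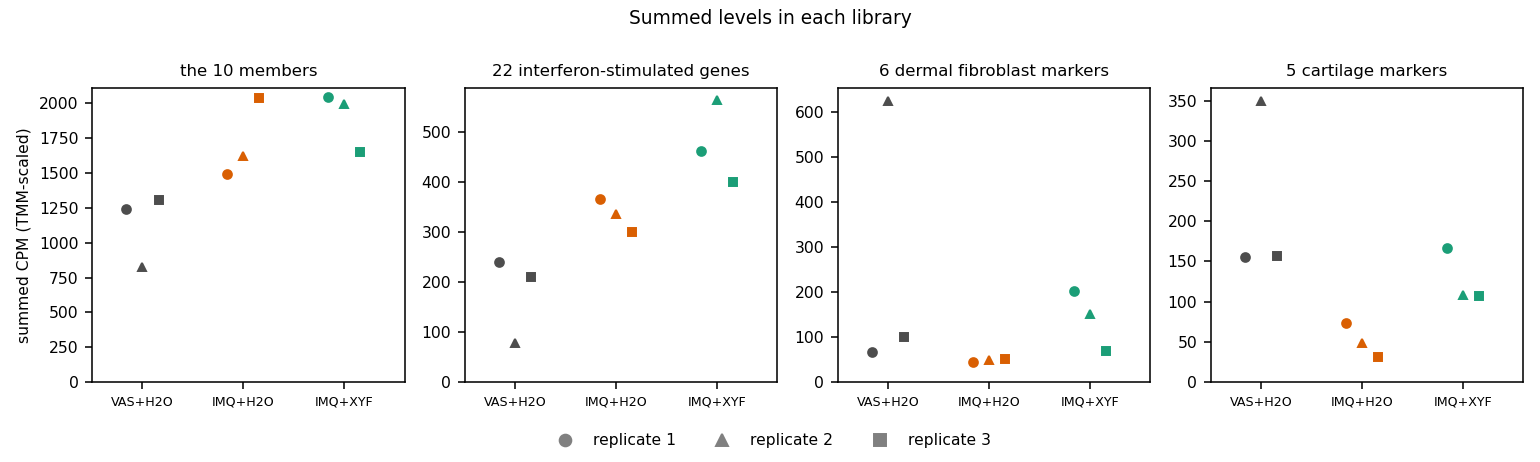
Summed TMM-scaled CPM (vertical axes, from 0) of the 10 members, of 22 interferon-stimulated genes, of 6 dermal fibroblast markers and of 5 cartilage markers in each library. VAS+H2O replicate 2 is lowest in the first 2 panels and highest in the last 2.

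Other tissue and cell type markers moved along with these groups. Markers of dermal fibroblasts summed to 44.6 to 51.7 CPM in IMQ+H2O and 69.6 to 201 in IMQ+XYF, and those of cartilage to 30.7 to 72.9 and 107 to 167, against 66.3 to 623 and 155 to 350 in VAS+H2O. All 4 cartilage markers tested and 1 of 6 fibroblast markers fell in IMQ+H2O, and without VAS+H2O replicate 2 the cartilage marker Cnmd did not pass (adjusted p = 0.0506), while the median log2 fold change of the fibroblast markers went from -2.48 to -0.67. Between IMQ+XYF and IMQ+H2O the 4 cartilage markers were higher without overlap, and passed in DESeq2 but not in edgeR, as did 3 fibroblast markers. In VAS+H2O replicate 2 the members stood at 44.1% (Psmb9) to 86.5% (Tap2) of the mean of the other 2 control libraries, and the constitutive core had 1196 CPM in sum there against 1337 and 1293. Of 6 keratinocyte markers, Krt1 and Krt14 rose in IMQ+H2O and 0 fell, and Krt14 did not pass without VAS+H2O replicate 2 (adjusted p = 0.0586). The part of these shifts in the class I results was not tested.

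Markers of leukocytes, which carry abundant class I molecules, gave no uniform shift. The 4 general leukocyte markers summed to 49.9 to 55.2 CPM in VAS+H2O, 40.1 to 79.5 in IMQ+H2O and 45.9 to 66.0 in IMQ+XYF, and the 7 myeloid and neutrophil markers to 54.0 to 60.4, 83.9 to 198 and 97.5 to 146. IMQ+H2O replicate 3 was the highest of its group for both lists, and it had the highest level of B2m, H2-K1, H2-D1, Tap1, Psmb8, Psmb9, Psmb10 and Nlrc5 within that group as well. Of the myeloid and neutrophil markers, Cxcr2 rose past the test in IMQ+H2O (log2 fold change 2.38 ± 0.22 SE, adjusted p = 0.00379, edgeR). It also passed without VAS+H2O replicate 2 (adjusted p = 0.022), and DESeq2 called 3 of the list higher. The 4 others tested did not pass in edgeR, with Itgam at 2.44, Lyz2 at 1.95, Fcgr3 at 0.002 and Csf1r at -0.10. In IMQ+XYF against VAS+H2O, Cxcr2 and Csf3r passed in edgeR and 4 did not. There 5 of the 6 tested were above 0, and Csf1r stood at -0.35. Csf3r had too few counts to be tested in IMQ+H2O against VAS+H2O. The 7 T cell markers summed to 43.8 to 50.02, 24.7 to 34.2 and 22.8 to 34.3 CPM. Among these, Cd3e and Cd3g fell in IMQ+H2O, of which Cd3g did not pass without VAS+H2O replicate 2 (adjusted p = 0.0681). Of the cells that read class I molecules, natural killer cells left 0 to 0.233 CPM over 3 markers, with Eomes at 0 counts throughout, and Cd8a and Cd8b1 of CD8+ T cells had at most 0.0785 CPM in any library. The part of the leukocyte markers in the class I results was not tested.

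Across the 9 libraries, the likeness of every gene to the members was measured as the root mean square difference of its standardized log2 CPM from the mean standardized profile of the 10. Psmb9 was nearest of all 18492 genes (0.144), H2-D1, B2m, H2-K1 and Psmb10 ranked 17, 28, 38 and 40, and Tapbp, Psmb8, Tap1 and Nlrc5 ranked 110 to 225, though each member is itself part of that mean. Tap2 followed it least, at rank 1919. The 5 other genes most like the profile were Zbp1, which encodes a sensor of nucleic acids, Rtcb, the ligase of tRNA splicing, Shisa5, Bst2, which encodes the antiviral protein tetherin, and Ncbp2, a subunit of the cap-binding complex, at 0.182 to 0.221. Standardizing removes the size of a difference. Zbp1 had 0.888, 0.182 and 0.946 CPM in VAS+H2O, 3.11, 3.72 and 5.83 in IMQ+H2O and 6.22, 7.30 and 5.21 in IMQ+XYF, whereas Ncbp2 moved only from 20.5 to 25.8 CPM in VAS+H2O to 29.8 to 31.7 in IMQ+XYF.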

How the data were processed

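Epidermal RNA-seq libraries were grouped by their titles, 3 per group. Per the submitters' processing notes and the study's methods, reads were checked with FastQC and aligned with STAR 2.5 to GRCm38; the notes also name Cuffnorm and DESeq 1.22.1, and the methods StringTie and DESeq2. The authors deposited whole-number counts per gene without normalization, and the counting tool, its strand setting and its treatment of reads with several matches are not given in the sources used here. Labels call the libraries strand-specific, while the TruSeq v2 kit of the methods is not one that marks strand, so strand is uncertain.

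Comparisons were fitted separately, with 6 libraries each, in R 4.3.3 with edgeR 4.0.16 (filterByExpr, TMM, glmQLFit, glmQLFTest; Benjamini-Hochberg over all genes tested). Past the test means an adjusted p of at most 0.05. DESeq2 1.42.0 was the main alternative. The code was tested on simulated data. Ratios used a pseudocount of 0.5 counts, and log2 CPM a prior count of 2.

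The members and lists were chosen with earlier results of these data known. Named besides the members were, from each list, up to 4 genes past the test with the smallest adjusted p in IMQ+H2O against VAS+H2O, or the 2 most abundant where none passed, the 3 constitutive partners, and the 5 genes most like the members. Markers, single exceptions within a count and genes at an unadjusted p under 0.05 were named after their values were seen.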

Additional observations from a re-analysis of the deposited data

How the results depend on the processing

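All 10 members kept log2 fold changes above 0 under every alternative run in both comparisons with VAS+H2O. In IMQ+XYF against IMQ+H2O, 3 of the values fell below 0, those of H2-D1 without IMQ+H2O replicate 1 (-0.025) or IMQ+XYF replicate 1 (-0.018) and of Nlrc5 without IMQ+XYF replicate 2 (-0.01). Over all members, alternatives and comparisons, 319 values stayed on their side of the threshold, 37 lost a call and 4 gained one. Only members past the test could lose a call, 4 in IMQ+H2O and 7 in IMQ+XYF against VAS+H2O. The 319 thus include the values of members that had no call to lose. In IMQ+H2O against VAS+H2O, where 4 members passed, 1 did with no low-count filter, 2 with a log2 fold change of at least 1 added, and 0 to 2 with 1 library left out (0 without VAS+H2O replicate 2, 1 or 2 without any other). Tapbp passed in DESeq2 (adjusted p = 0.0275), with at least 10 counts in every library (0.0484) and with all 9 libraries in 1 fit (0.0364). In IMQ+XYF against IMQ+H2O 0 members passed under any of the alternatives. In IMQ+XYF against VAS+H2O, where 7 passed, 4 did with the fold threshold and 4 to 7 with 1 library left out (4 without IMQ+XYF replicate 1 or 2). Genes past the test fell from 3986 to 1383 and from 5152 to 1371 in the comparisons with VAS+H2O when the fold threshold was added, and with 1 library left out ranged from 1446 to 3077 and from 3221 to 4544. In IMQ+XYF against IMQ+H2O they were 5, but 165 in DESeq2, 1 with all 9 libraries in 1 fit, and 0 to 5 with 1 library left out (0 without any IMQ+XYF library or IMQ+H2O replicate 2). Without VAS+H2O replicate 2, a count chosen after seeing the data, 5 of 15 peptide supply genes, 4 of 14 core genes, 2 regulators and 5 interferon-stimulated genes were higher in IMQ+H2O, beside 4.9% of all genes. The cause of these changes was not tested.

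The titles number the replicates alike in each group, but not every same-numbered pair deviated together (correlations over 1000 genes of -0.153 to -0.011 for number 1, 0.064 to 0.248 for number 2 and 0.102 to 0.180 for number 3, and 9 of 18 best matches with the own number). With the replicate number as a block, 4, 0 and 5 members and 3002, 0 and 3753 genes passed in the 3 comparisons in the order above, Tap2 (adjusted p = 0.0917) and Psmb9 (0.0776) being lost in the third.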

Other observations

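Within a group, the 3 libraries did not keep 1 order over the members. In IMQ+XYF, replicate 2 held the highest level of all 9 libraries for 7 of the 10 members (Tap1, Tap2, Tapbp, Psmb8, Psmb9, Psmb10 and Nlrc5), replicate 1 held it for B2m, and IMQ+H2O replicate 3 for H2-K1 and H2-D1. The range from the lowest to the highest library was 1.62-fold for Tap2 and 5.26-fold for Psmb9, with the other 8 in between.

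The limits of these data are 3 libraries per group, a control library that stands apart, and adjusted p-values close to the threshold for B2m, H2-D1 and Psmb10. IMQ+H2O replicate 3 also differed from its group, with a chi-square per gene of 70.9 and 75.0 against the others. Between IMQ+H2O replicates 1 and 2 it was 23.8, and for VAS+H2O replicate 2 against replicates 1 and 3 it was 42.6 and 39.6. By this measure VAS+H2O replicate 2 did not stand apart, as replicates 1 and 3 of its group differed by 39.2. Without IMQ+H2O replicate 3, the log2 fold change of B2m was 0.60 in IMQ+H2O against VAS+H2O. In IMQ+XYF against IMQ+H2O it was then 0.46, and that of Psmb8 0.66. Counts measure transcripts, and neither surface class I molecules nor proteasome make-up were measured here. The members share regulators and chromosomal neighbourhood, so their number is not a number of independent observations.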
